A study of Bos taurus with 38 samples.

Results

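The change in rumen papillae between the end of dietary restriction and day 55 of re-alimentation was examined within bulls of the restricted treatment (RES). The samples were chosen by their titles, which gave 9 RES bulls at the end of Period 1 and 10 RES bulls at the end of Period 2, 19 of the 38 samples of the series. All were purebred Holstein Friesian bulls offered one diet of concentrate and grass silage, in amounts that differed between treatments. During the 125 days of Period 1, RES bulls were held to a slow target growth by a restricted amount of feed, while ADLIB bulls had free access throughout. Within the 55 days of Period 2, a gradual build-up of intake in RES bulls came first, and free access to feed followed. Papillae were harvested at slaughter, so the bulls of the 2 periods were different animals, and those of Period 2 were also further on in the trial. Feed allowance and time on trial therefore cannot be told apart within RES. The tissue field of the labels and the study name rumen epithelium or papillae, while the labels describe extraction from muscle.

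Rumen papillae are the finger-like folds of the rumen wall, covered by a layered epithelium through which the short-chain fatty acids of microbial fermentation are absorbed. This epithelium also oxidises part of those acids and forms ketone bodies from butyrate, and its growth follows the supply of fermentable feed. A period of faster growth that follows a period of restricted feeding is known as compensatory growth.

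For each bull, the authors deposited 1 value for each Ensembl gene, namely the reads counted on the gene, set to a common library size (CPM) after scaling by the trimmed mean of M-values (TMM). Whole reads could be recovered from these values. The 19 RES libraries held from 5948453 to 11957654 reads on listed genes, with a median of 9503897 in Period 1 and 8827494 in Period 2. Mean reads did not differ detectably between the periods (two-sided exact permutation test, p = 0.961, and 0.961 after adjustment over 2 measures). The 10 most-read genes took 18.5% ± 1.30 (SD, n = 9) of reads in Period 1 and 18.4% ± 1.42 (SD, n = 10) in Period 2 (exact permutation test, p = 0.857, adjusted p = 0.961). A single read was worth from 0.0744 to 0.160 CPM, and 3 reads from 0.223 to 0.480 CPM. One library stood apart from its group, RES Period 2 replicate 1, and some of the results that rest on it are given with and without it. The identifiers could not be paired with gene symbols here, so 4 genes are named by identifier, other genes by their rank, and the tissue could not be checked against marker genes. As the papillae were sequenced in bulk, fewer cells of a type and less RNA per cell cannot be told apart.

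Expression of 204 genes changed between the periods within RES, which is 1.63% of the 12532 genes tested. Of these differentially expressed genes (DEGs), 103 (0.822% of genes tested) were higher and 101 (0.806%) were lower after re-alimentation than after restriction. The threshold was an adjusted p of 0.05 (Benjamini-Hochberg) from limma on log2(CPM + 1), a scale that understates the change of genes with few reads. Without RES Period 2 replicate 1 the same test gave 286 DEGs, while 17 of the 19 fits that each left out 1 bull gave fewer than 204, down to 136 without RES Period 1 replicate 5. With the library digit, described at the end, as a covariate there were 103. Most changes were moderate in size. The log2 fold changes of DEGs had sizes from 0.24 to 1.90, with a median of 0.61, whereas the median size over all genes tested was 0.11. A size over 1 was reached by 13 of the higher and 19 of the lower DEGs, and by 57 of all 12532 genes tested. A size under 0.5 was found in 73 of the 204 DEGs and in 12118 of all genes tested. The largest log2 fold change of all genes tested, 1.96, belonged to a gene that was not a DEG.

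Higher DEGs were on the whole more abundant than lower ones. Mean expression over the 19 bulls had a median of 46.5 CPM in the higher DEGs, from 2.09 to 5542 CPM, and of 19.9 CPM in the lower DEGs, from 1.71 to 338 CPM. The median over all genes tested was 20.6 CPM. At 100 CPM or more there were 24 higher DEGs (23.3%) and 11 lower DEGs (10.9%), against 11.8% of all genes tested. Under 10 CPM there were 21 higher DEGs (20.4%) and 38 lower DEGs (37.6%), against 31.3% of all genes tested. The share of genes called varied with abundance, from 1.04% in the decile of genes with the lowest mean CPM to 2.31% in the decile with the highest. The precision varied too, as the median standard error of the log2 fold change fell from 0.158 in the lowest decile to 0.0936 in the highest, and the smallest change called was 0.44 in the lowest and 0.25 in the highest.

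**Figure D1:**
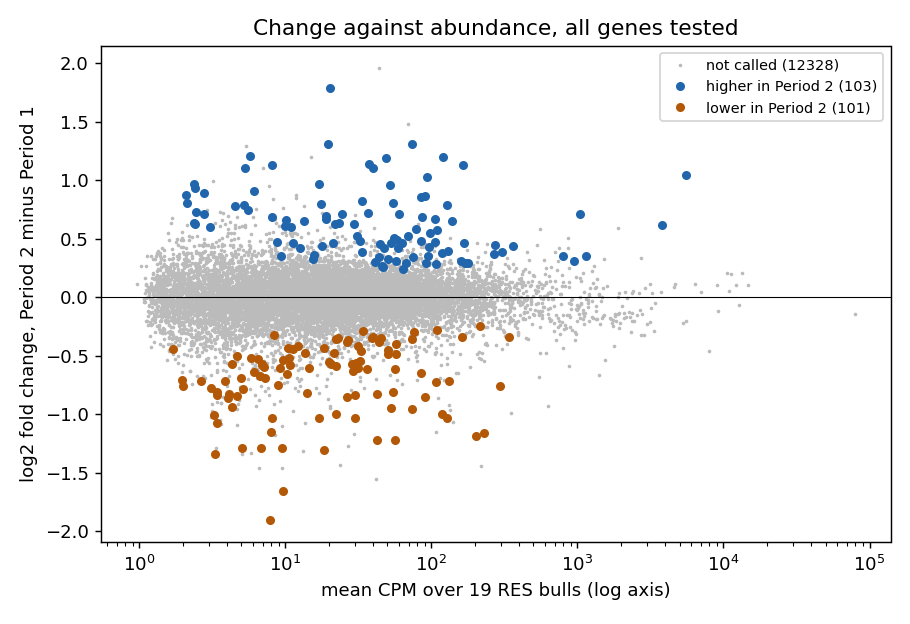
Log2 fold change from RES Period 1 to RES Period 2 (vertical axis, on log2(CPM + 1)) against mean CPM over the 19 RES bulls (horizontal log axis), with 1 point for each of the 12532 genes tested. The 103 higher DEGs reach from 2.09 to 5542 CPM, while the 101 lower DEGs stop at 338 CPM.

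Summed over genes, the higher DEGs took 1.45% ± 0.124 (SD, n = 9) of all CPM in Period 1, with bulls from 1.30% to 1.64%. In Period 2 they took 2.35% ± 0.242 (SD, n = 10), with bulls from 1.96% to 2.69%. No bull of one period reached the range of the other, a separation that the choice of these genes fixes. A large part of the rise lay in 1 gene, and without the most abundant higher DEG the shares were 1.09% ± 0.0769 and 1.61% ± 0.124. The lower DEGs took 0.504% ± 0.0223 (SD, n = 9) in Period 1 and 0.320% ± 0.0221 (SD, n = 10) in Period 2.

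The 12 largest rises had log2 fold changes from 1.04 to 1.79. Their mean expression ran from 2.88 to 3531 CPM in Period 1 and from 7.55 to 7352 CPM in Period 2. In the gene with the largest rise, Period 1 bulls had 4.57 CPM at the lowest, 7.45 at the median and 10.4 at the highest. Period 2 bulls had 11.2, 30.5 and 56.7 CPM in the same order, so every re-alimented bull lay above every restricted bull. The mean was 4.18 times that of Period 1, and the log2 fold change was 1.79 (standard error, SE, 0.272, limma adjusted p = 0.00147). Bulls of Period 2 were far more spread in this gene, with an SD of 16.5 CPM against 2.41 CPM in Period 1.

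In the second largest rise, the lowest, median and highest Period 1 bulls had 28.8, 36.4 and 54.5 CPM, and those of Period 2 had 34.6, 98.5 and 224.9 CPM. The groups overlapped, as Period 2 replicates 8 and 9 (34.6 and 51.2 CPM) lay within the Period 1 range. The log2 fold change was 1.31 (SE 0.260, limma adjusted p = 0.0108), and 1.09 with the library digit as a covariate (adjusted p = 0.0697). The third largest rise went from 5.04, 9.63 and 14.5 CPM to 13.0, 22.5 and 64.9 CPM, again as lowest, median and highest. Here Period 2 replicates 7 and 10, at 63.8 and 64.9 CPM, stood well above the other 8 re-alimented bulls, the next of which had 28.8 CPM.

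Of the 12 largest rises, 2 had no overlap between the periods. In each of the 12, the Period 2 median was above the highest Period 1 bull. The genes were chosen by this same change, so the place of the medians is partly built in. It was not counted over all genes tested. The tenth largest rise was the least firm. Its Period 1 bulls had 0.867, 2.71 and 4.60 CPM (lowest, median, highest) and its Period 2 bulls 1.59, 6.57 and 13.1 CPM, with Period 2 replicate 7 at the lowest value and the next bull at 5.41 CPM. Its log2 fold change was 1.11 (adjusted p = 0.0385 from limma), and the call was lost in 13 of the 19 fits that each left out 1 bull, with an adjusted p of up to 0.0786.

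The 12 largest falls were changes of -1.90 to -1.15 on the log2 scale. Mean expression of these genes was from 5.11 to 317 CPM in Period 1 and from 1.68 to 150.8 CPM in Period 2. Of the 12, 7 were under 10 CPM over all 19 bulls, compared with 3 of the 12 largest rises and 31.3% of all genes tested. In the gene with the largest fall, Period 1 bulls had 6.39, 12.9 and 17.1 CPM (lowest, median, highest). Period 2 bulls had 0.327, 1.63 and 28.4 CPM. The highest value of all 19 bulls was thus in a re-alimented bull, Period 2 replicate 1, and replicate 7 followed with 7.03 CPM, while the other 8 were at or under 2.26 CPM. The lowest Period 2 value rested on 2 reads. The log2 fold change was -1.90 (SE 0.423, limma adjusted p = 0.0209), and -2.26 without replicate 1. When the recovered reads were tested with DESeq2 and with the quasi-likelihood and exact tests of edgeR, this gene did not pass (adjusted p = 0.29, 0.267 and 0.214), whereas with voom it did (log2 fold change -2.51, adjusted p = 0.00938).

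The second largest fall was tighter. Period 1 bulls had 7.82, 14.3 and 34.7 CPM (lowest, median, highest) and Period 2 bulls 1.87, 3.60 and 7.82 CPM. The groups only just met, since the lowest restricted bull and the highest re-alimented bull were level at this precision. Mean expression in Period 1 was 3.80 times that in Period 2, with a log2 fold change of -1.66 (SE 0.239, limma adjusted p = 0.000917).

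Abundant genes among the largest falls overlapped too. The eleventh largest fall went from 154.5, 296.9 and 565.8 CPM to 65.5, 126.7 and 354.4 CPM (lowest, median, highest), with a log2 fold change of -1.16 (adjusted p = 0.0438 from limma). Its call was lost in 13 of the 19 fits that each left out 1 bull, and that of the fifth largest fall, -1.29 on the log2 scale, in 15 of them, with adjusted p of up to 0.0844 and 0.0789. The tenth largest fall had 140.2, 257.8 and 422.5 CPM in Period 1 and 81.4, 111.0 and 217.5 CPM in Period 2, a log2 fold change of -1.18 (adjusted p = 0.00456 from limma). None of the 12 largest falls was free of overlap between single bulls. The Period 2 median was below the lowest Period 1 bull in each of them, which their choice by this change partly fixes.

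**Figure D2:**
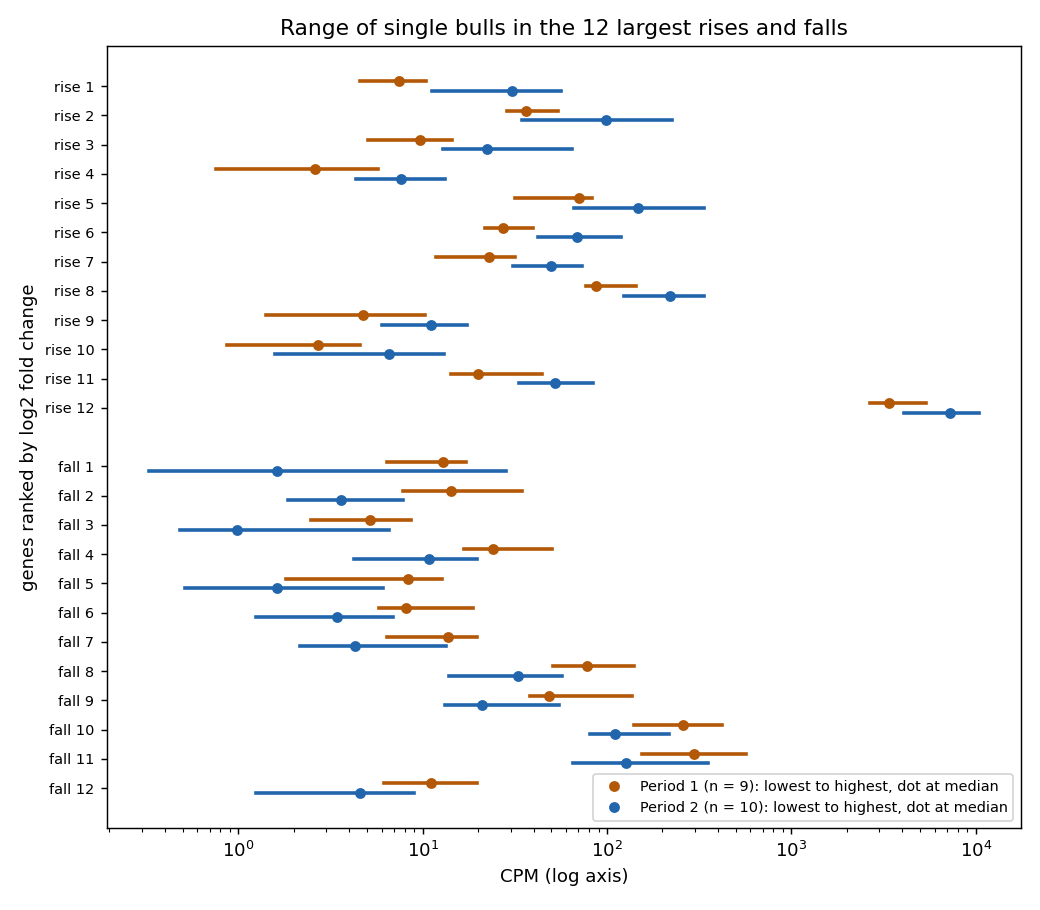
CPM (log axis) of the 12 genes with the largest rises and the 12 with the largest falls, ranked by log2 fold change, with lines from the lowest to the highest bull and dots at the median for RES Period 1 (n = 9, upper line of each pair) and RES Period 2 (n = 10, lower line). The Period 2 median lies outside the Period 1 range in all 24 genes, which their choice by this same change partly fixes. The full ranges are apart in 2 of the rises and in 0 of the falls.

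The changes with the smallest adjusted p were not the largest. The smallest adjusted p among rises belonged to ENSBTAG00000008779, which ranked as the sixth largest rise. Its lowest, median and highest Period 1 bulls had 21.8, 27.2 and 39.6 CPM, and those of Period 2 had 42.2, 68.6 and 119.5 CPM. The periods did not overlap, but the margin between the highest restricted and the lowest re-alimented bull was small. Means were 28.1 ± 5.11 CPM (SD, n = 9) and 67.3 ± 21.8 CPM (SD, n = 10), and the log2 fold change was 1.19 (SE 0.147, limma adjusted p = 0.000161).

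ENSBTAG00000031464, the eighth largest rise, was some way more abundant. Its Period 1 bulls had 76.5, 86.9 and 144.3 CPM (lowest, median, highest) and its Period 2 bulls 124.3, 219.8 and 338.0 CPM. The ranges overlapped at their edges, and the log2 fold change was 1.13 (SE 0.148, limma adjusted p = 0.000297).

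Among falls, ENSBTAG00000007480 had the widest gap between single bulls of any gene tested. Period 1 bulls had 101.7, 107.3 and 175.5 CPM (lowest, median, highest), and Period 2 bulls 51.9, 62.9 and 75.8 CPM. The lowest restricted bull lay 0.42 above the highest re-alimented bull on the log2 scale. The log2 fold change was -0.85 (SE 0.0939, limma adjusted p = 5.4e-05), and it was -0.78 without RES Period 1 replicate 5, the bull at 175.5 CPM.

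ENSBTAG00000019711 had few reads, between 10 and 86 in a library. Its Period 1 bulls had 3.16, 4.94 and 6.68 CPM (lowest, median, highest) and its Period 2 bulls 1.35, 1.75 and 2.83 CPM, with no overlap. Mean expression in Period 1 was 2.73 times that in Period 2, and the log2 fold change was -1.08 (SE 0.121, limma adjusted p = 5.4e-05). The 4 named genes remained DEGs in each of the 19 fits that left out 1 bull, with adjusted p of up to 0.000953.

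**Figure D3:**
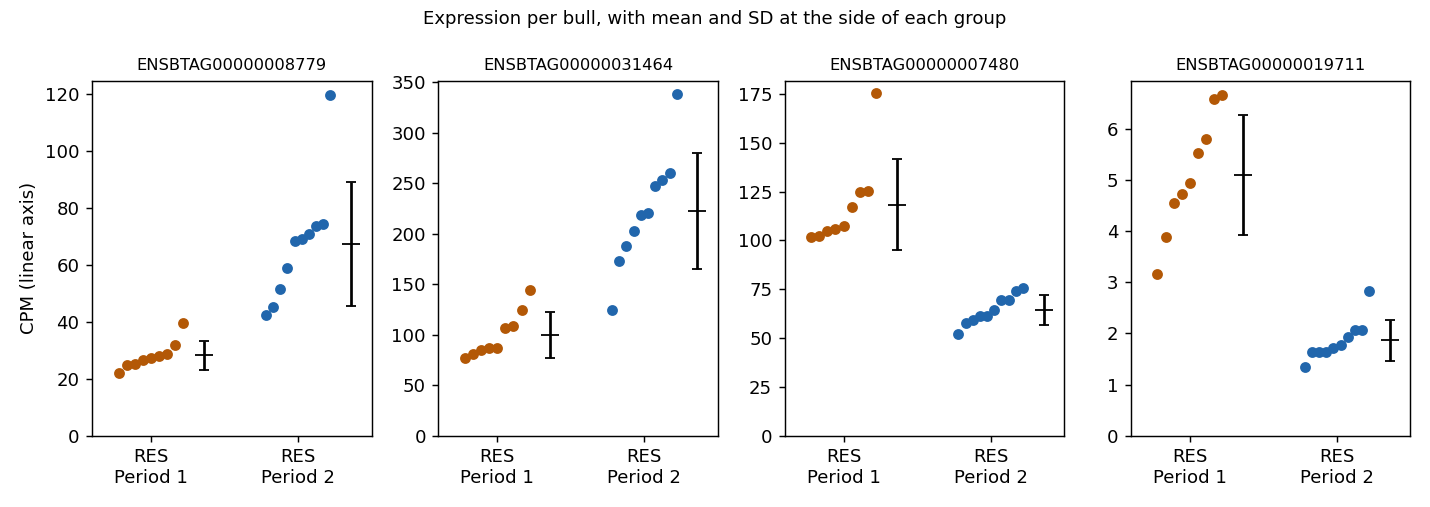
CPM (linear axes from 0) of 2 genes that rose and 2 that fell, with 1 dot for each RES bull in order of value and the mean with its SD beside each group (n = 9 in Period 1, n = 10 in Period 2). The groups are apart in 3 of the genes and overlap at the edges in ENSBTAG00000031464, where the highest Period 1 bull has 144.3 CPM and the lowest Period 2 bull 124.3 CPM.

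The most abundant transcripts that changed were rises. The most abundant DEG was also the twelfth largest rise. Period 1 bulls had 2678, 3377 and 5364 CPM (lowest, median, highest) and Period 2 bulls 4105, 7233 and 10413 CPM, so that the mean rose 2.08 times, with a log2 fold change of 1.04 (SE 0.163, limma adjusted p = 0.00200). It had at least 19719 reads in every library, so counting error was a small part of the spread between bulls. The ranges nevertheless overlapped, between the lowest re-alimented and the highest restricted bulls. The next most abundant higher DEG had 2194, 3024 and 3845 CPM in Period 1 and 3203, 4226 and 5943 CPM in Period 2, a log2 fold change of 0.62 (adjusted p = 0.0185 from limma). The other 3 of the 5 most abundant higher DEGs had log2 fold changes of 0.35, 0.71 and 0.31. The most abundant lower DEG had 301.7, 378.5 and 462.3 CPM in Period 1 and 264.4, 291.3 and 361.9 CPM in Period 2, a log2 fold change of -0.34 (adjusted p = 0.0462 from limma). The following 4 lower DEGs by abundance changed by -0.76, -1.16, -0.25 and -1.18 on the log2 scale.

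The separation of single bulls was seldom complete. In 19 genes, 0.152% of those tested, every bull of one period was higher than every bull of the other, 8 of them higher and 11 lower in Period 2. All 19 were DEGs, and all 19 were among the 109 DEGs (54 higher and 55 lower) that were called in every fit that left out 1 bull. For the rest of the 204 DEGs, the fewest bulls that had to be left out for the ranges to part was counted. It was 1 in 50 genes, 2 in 98 genes, 3 in 36 genes and 4 in 1 gene. This was not counted for the other genes tested, and calling DEGs on the same contrast itself favours small numbers. Leaving out a bull cannot lower the number of genes without overlap, which was 32 without RES Period 2 replicate 7. Leaving out replicate 1 or replicate 9 of the same group gave 28 genes each, and no other bull gave more than 25. The separated genes covered a broad range of abundance, from a fall with means of 2.83 CPM in Period 1 and 1.25 CPM in Period 2 to a rise with means of 106 and 167 CPM.

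Single bulls were next placed by genes in whose choice they had no part. Each bull was left out in turn, DEGs were called on the other 18, and the left-out bull was set against the means of the 2 periods in those genes. In 18 of 19 bulls, more than 50% of these genes were nearer the mean of the bull's own period. The share ran from 60.3% to 83.1% in Period 1, with a median of 74.8%, and from 47.6% to 84.7% in Period 2, with a median of 76.4%. The exception was RES Period 2 replicate 1, which was nearer the re-alimented mean in 136 of 286 genes, and to about the same extent in higher genes (47.2%) and lower genes (47.9%). Period 2 replicates 7 and 9 (58.2% and 59.3%) and Period 1 replicates 4 and 1 (60.3% and 61.3%) were also close to the middle. These shares have no test, since the genes are not independent of each other.

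**Figure D4:**
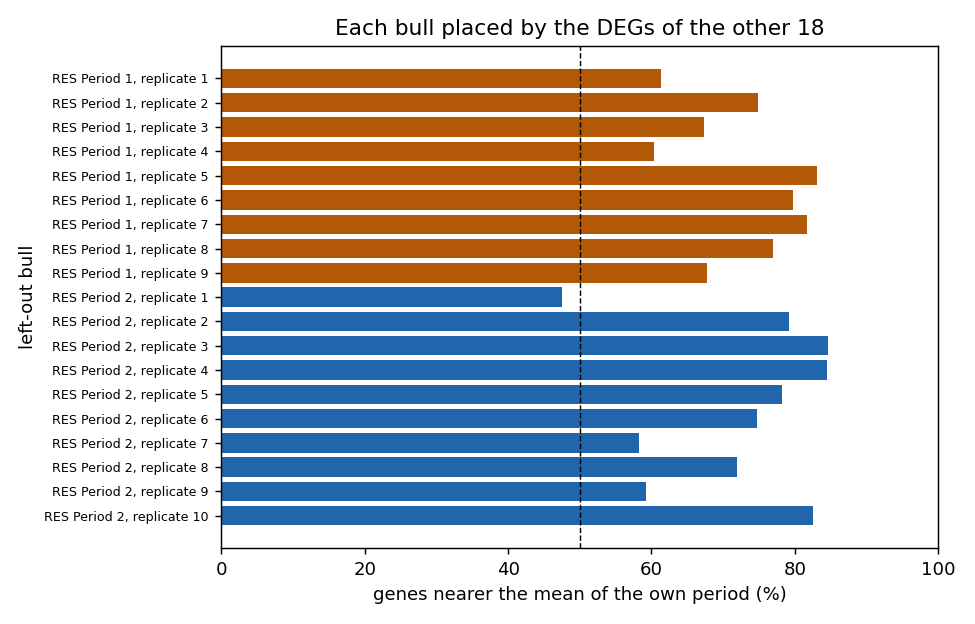
Percent of DEGs, called on the other 18 RES bulls, in which each left-out bull was nearer the mean of its own period, with a dashed line at 50% and colours for the 2 periods. RES Period 2 replicate 1 lies under the line at 47.6%, and the other 18 bulls lie between 58.2% and 84.7%.

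Over all genes tested, the period was not the main axis of variation between bulls. The first principal component held 20.4% of the variance, and 0.278% of its own spread lay between the periods, against 24.8% between library digits. The second held 12.4%, and 60.5% of its spread lay between the periods and 15.8% between library digits. The third held 10.8%, with 23.7% of its spread between the periods and 37.9% between library digits. The digits form more groups than the periods and are not balanced over them, so these shares cannot be compared directly. Scores on the second component were 10.6 ± 9.49 (SD, n = 9) in Period 1, from -1.86 to 28.8, and -9.53 ± 7.68 (SD, n = 10) in Period 2, from -18.8 to 7.18. The overlap came from RES Period 2 replicate 1 at 7.18, as the next highest bull of its group was at -6.17, under every bull of Period 1. Correlation of log2 values across genes, which are not independent replicates, was similar for libraries of one period and of different periods, with a median r of 0.974 within Period 1, 0.974 within Period 2 and 0.969 between them.

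**Figure D5:**
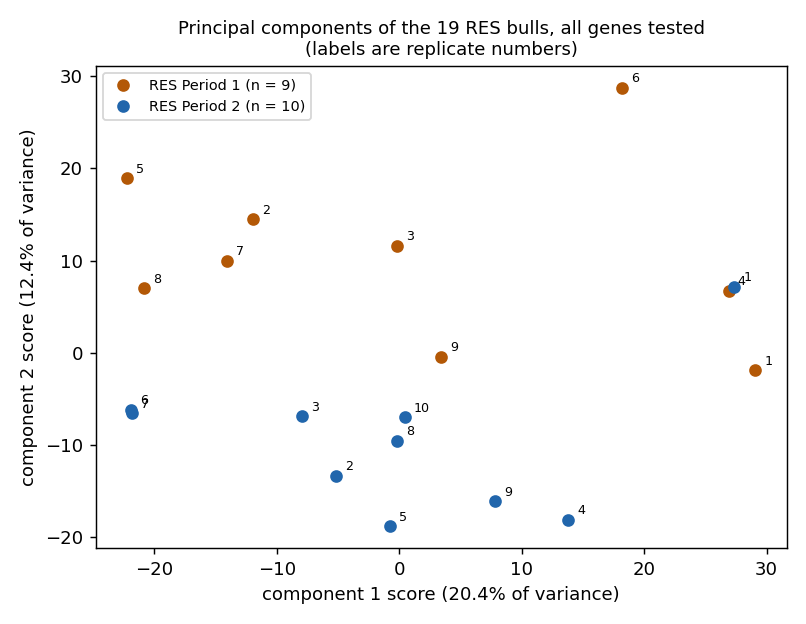
Scores of the 19 RES bulls on the first and second principal components of log2(CPM + 1) over all genes tested, without units, labelled by replicate number and coloured by period. Apart from RES Period 2 replicate 1 at 7.18, the second component places the Period 2 bulls at or below -6.17 and the Period 1 bulls at or above -1.86.

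Spread between bulls was compared as a description. The SD of log2(CPM + 1) was larger in Period 2 in 120 of the 204 DEGs (58.8%), and in 55.7% of all genes tested. In the 12 largest rises the median SD was 0.41 in Period 1 and 0.46 in Period 2, and in the 12 largest falls it was 0.51 and 0.68. Genes listed in one period only were not tested. There were 91 listed for Period 1 alone, with mean expression in RES from 0.897 to 11.5 CPM and a median of 1.36, and 168 for Period 2 alone, from 0.796 to 4.50 CPM with a median of 1.21.

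The same genes were followed in ADLIB bulls over the same periods (n = 9 and n = 10), a comparison that shares no sample with RES. In ADLIB, 0 of 12526 genes (0% called) passed an adjusted p under 0.05 with limma, and 716 (5.72%) had an unadjusted p under 0.05. Within RES, 1947 of 12532 genes had an unadjusted p under 0.05 (limma). All of the 12 largest falls in RES and 11 of the 12 largest rises had the same sign in ADLIB, where 61% of all genes tested did. ADLIB changes had a median of 0.44 in the 12 rises against 1.16 in RES, and of -0.57 in the 12 falls against -1.29 in RES. The genes were ranked by their change in RES, so smaller values elsewhere are partly built in. An unadjusted p under 0.05 in ADLIB was found for 5 of the 12 rises and 0 of the 12 falls (limma). The second and the third largest rises were among these 5, with ADLIB log2 fold changes of 1.00 and 1.22 against 1.31 in RES for each.

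The difference between the treatments in the change over time was tested over all 38 samples. It passed an adjusted p under 0.05 in 3 of 12543 genes (0.0239%), and 600 (4.78%) had an unadjusted p under 0.05 (limma). With the library digit as a covariate the number was 0 (668 genes at an unadjusted p under 0.05, limma), and it was 0 in 7 of the 19 fits that each left out 1 RES bull. None of the 12 largest rises or falls was among the 3. In ENSBTAG00000019711 the change in ADLIB was 0.0059 on the log2 scale, and the difference was -1.08 (SE 0.213, limma adjusted p = 0.0422). For ENSBTAG00000008779 the ADLIB change was 0.48 and the difference 0.70 (adjusted p = 0.952 from limma), for ENSBTAG00000031464 these were 0.52 and 0.61 (adjusted p = 0.998), and for ENSBTAG00000007480 they were -0.20 and -0.66 (adjusted p = 0.460). The largest rise differed by 1.34 (unadjusted p = 0.000781, adjusted p = 0.576 from limma). A p over the threshold does not show that the changes were alike, and the standard errors of these 4 differences were 0.257, 0.291, 0.175 and 0.368 on the log2 scale.

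The first character of each library identifier is a digit (1 to 4), and no label explains it. RES libraries with digits 1 to 4 numbered 4, 1, 1 and 3 in Period 1 and 3, 3, 3 and 1 in Period 2. Libraries of digit 1 had from 5948453 to 7349256 reads, and the other RES libraries from 8685708 to 11957654. With the digit as a covariate, limma called 103 genes, 87 of them among the 204. The largest changes that lost their call, with adjusted p from 0.0562 to 0.105, were the second, the fifth and the ninth largest rises and the fifth, the sixth, the ninth, the eleventh and the twelfth largest falls. All 204 kept their sign, and their sizes had a median of 0.60 (log2). Among the 7 libraries of digit 1 alone, 6 genes were called, and 203 of 203 DEGs that could be tested had the sign found with all bulls, as did 78.8% of all genes tested there. The median size there was 0.65 against 0.61 with all bulls, and 170 had an unadjusted p under 0.05, against 10.2% of all genes tested in these libraries (limma). These 7 bulls also took part in the main test, so the agreement in sign is partly built in. No other digit held at least 2 bulls of each period. The part of the digit in the results was not tested beyond these fits.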

How the data were processed

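Rumen papillae of 38 bulls were sequenced by the authors (single-end mRNA-seq). The submitters' processing notes name CASAVA 1.4, Bowtie, SAMtools, HTSeq, edgeR and genome build UMD3.1. The deposited signal is 1 value per Ensembl gene and bull, the read count set to CPM of a TMM-scaled library, with genes of low counts already removed by the authors. The unit was inferred from the values. In every sample 100% of values were whole multiples of 1 read (tolerance 0.05 of a read), and these reads were used for TMM over the 19 RES samples and for count tests.

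The design followed the study's contrast, without covariates or block. The study had assigned bulls to treatments within blocks formed by live-weight and age, which were not used here. The test was limma 3.58.1 with a variance trend on log2(CPM + 1), after filterByExpr of edgeR 4.0.16, in R 4.3.3, with Benjamini-Hochberg adjustment over all genes tested. CPM are on the scale of the 19 RES samples, and so differ slightly from those deposited for each period. Differences from ADLIB used all 38 samples. The 2 depth measures were compared by exact permutation. Each bull gave 1 library.

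Ranked genes were the 12 largest log2 fold changes of DEGs in each direction, and the 5 most abundant DEGs in each direction. As 0 of 12802 identifiers matched a symbol, identifiers were printed for at most 2 genes that rose and 2 that fell, those with the smallest adjusted p (of several falls level in adjusted p, those with the smallest p). The planned 30 function lists and 12 marker lists could not be used. No sequences or gene positions were analysed here. The samples, lists and tests were chosen with earlier results of these data known. Alternatives were RLE or deposited scaling, DESeq2 1.42.0, edgeR's quasi-likelihood and exact tests, voom, other filters, pseudocount and threshold, all 4 groups, library digit, replicate block and leaving out each RES bull. Leaving out each bull for the overlap of single animals was chosen after seeing the data. Scripts were tested on simulated data. Summaries were made in Python 3.11.15 (with pandas 2.3.3 and scipy 1.17.1), and figures with matplotlib 3.10.9.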

Additional observations from a re-analysis of the deposited data

Results flagged for a closer look

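In groups of 9 or 10 bulls, a bull was marked where its gap to the next, divided by the range of the group, passed Dixon's 95% limit. This held in 5 of 64 combinations of a measure and a group, and chance alone marks about 1 in 20 groups. RES Period 2 replicate 1 had reads on 12703 genes, with the next library at 12707, a gap of 0.5 of the range, and its score on the second principal component was 7.18 against -6.17 in the next, a gap of 0.514. RES Period 1 replicate 5 had 175.5 CPM of ENSBTAG00000007480 against 125.2 CPM in the next bull, a gap of 0.62 of the range (taken on log2 values). The same bull was lowest of its group in the fifth largest rise, at 31.8 against 51.5 CPM, a gap of 0.5. RES Period 2 replicate 7 was lowest of its group in the tenth largest rise, at 1.59 against 5.41 CPM, a gap of 0.536.

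The change from Period 1 to Period 2 differed between RES and ADLIB in 3 genes by the test of the difference itself (limma, Benjamini-Hochberg adjusted p = 0.0289, 0.0422 and 0.0422). The differences, RES minus ADLIB on the log2 scale, were -1.19, -1.08 (ENSBTAG00000019711) and 1.05, and all 3 genes were DEGs within RES. In the first, mean expression in RES went from 5.60 to 2.68 CPM, and in the last from 2.21 to 3.85 CPM. Reads in RES libraries were few, from 11 to 69 in the first and from 13 to 45 in the last. Both moved the other way in ADLIB, by 0.34 and -0.46 on the log2 scale (limma adjusted p = 0.870 and 0.699). Part of each estimated difference therefore came from an ADLIB change that did not itself pass the threshold. The number of such genes changed when single RES bulls were left out. It was 1 without replicate 1, 4 or 7 of RES Period 1 or replicate 4 or 5 of RES Period 2, and 0 without replicate 2 or 5 of RES Period 1 or any of replicates 6 to 10 of RES Period 2. In the fits that gave 0, from 531 to 627 genes had an unadjusted p under 0.05 (limma).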

How the results depend on the processing

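Within RES, the number of DEGs was 204, and stayed within 1.5 times this number with RLE scaling, the deposited scales, voom, the quasi-likelihood test, other filters, a pseudocount of 0.1 and all 4 groups in 1 fit. DESeq2 gave 456 and edgeR's exact test 313, and 203 and 188 of the 204 were among them. The library digit as a covariate gave 103, the libraries of digit 1 alone 6, and a threshold of 0.001 gave 8. With the replicate block, over the 9 numbers present in both periods, 119 genes were DEGs. Deviations of same-numbered bulls from their group means had a mean r across genes of 0.0316, from -0.226 to 0.243. It was over 0.1 in 3 of 9 pairs, and the mean for other pairs was -0.0031. The numbers were therefore not taken to pair bulls. These values cannot exclude that the numbers follow the study's blocks. Leaving out each of the 19 RES bulls gave from 19 to 32 genes without overlap (19 with all bulls), a number that this cannot lower. Leaving out each bull also gave from 136 to 286 DEGs and from 0 to 4 genes whose change differed between RES and ADLIB. That last number, 3 with all bulls, was 0 with the library digit (668 genes at an unadjusted p under 0.05), 1 with the replicate block and 1 with a pseudocount of 0.1. A stricter threshold lowers such numbers by construction, and the cause of the other shifts was not tested. Over the 26 ranked or named genes, 747 fold changes under alternatives kept direction and call, 109 kept direction alone and 0 reversed. These genes were chosen by the main fit, so this agreement is partly built in. Most alternatives also shared all or nearly all bulls with the main fit, and the stricter threshold used the same fold changes. Low counts limit the genes near 1 CPM, where 3 reads are up to 0.480 CPM.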
